A study of Rattus norvegicus with 16 samples.

Results

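The genes described here are 8 genes of the rat that make nitric oxide or handle the arginine and cofactor it is made from: Nos2, Nos3, Gch1, Slc7a1, Slc7a2, Arg2, Odc1 and Ddah2. They were picked by symbol from 26405 gene entries in whole blood RNA-seq data, and where several entries carried a symbol the entry with the highest total count was taken. This choice mattered for Nos2 alone among the 8, which had 2 entries. All 16 libraries came from male Sprague-Dawley rats, 85 to 90 days old, that had received 4 injections of saline (1 ml/kg, 2 h apart) without food or water and were sacrificed 3 h after the last dose. The animals formed 1 group, the saline controls, numbered 1 to 16, and the values therefore describe how these genes varied among animals treated alike. No treated group was compared. The blood was drawn from the heart with a needle, alpha and beta globin mRNA was depleted and polyadenylated RNA was sequenced, so each library mixed the RNA of all blood cells.

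The libraries held 21466776 to 31189549 estimated counts. Names of the files carried 6 codes, called run codes here, with 3 libraries in A (controls 1 to 3), 5 in B (controls 4, 5, 7, 8 and 10), 2 in C (controls 6 and 9), 4 in D (controls 11 to 14) and 1 each in E (control 15) and F (control 16). The study repeated the same experiment with other animals months apart, and the labels do not say which experiment an animal belonged to, so that a run code and an experiment cannot be told apart. Neutrophil, monocyte, T cell, B cell, platelet and erythroid marker lists were detected in every library, which fits the label whole blood, but some libraries stood apart. The summed level of 8 liver genes was 454988 normalized counts in control 2, 19949.7 in control 8, 4514 in control 7 and 2281 in control 5, against 14.9 to 119 in the other 12. A list of 4 thymus genes reached 5770 in control 12, where the highest of the other controls had 59.7. Heart muscle genes summed to 435.9 in control 10 and to 0 in controls 6 and 8. Relations to marker lists were therefore also computed without control 2, without controls 2, 8 and 12, without controls 2, 5, 7 and 8 and without control 10, and are given where a count changed.

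Nitric oxide synthases convert L-arginine to nitric oxide and citrulline, and all of them need tetrahydrobiopterin as a cofactor. The inducible enzyme, encoded by Nos2, is known from activated macrophages and neutrophils, whereas the endothelial enzyme, encoded by Nos3, is produced constitutively. Arginine enters cells through cationic amino acid transporters, arginases compete for it and feed ornithine into polyamine synthesis, and methylated arginines block the synthases until they are broken down. Counts were scaled with DESeq2 size factors and are given below as normalized counts, which compare libraries for one gene and do not compare genes.

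Nos2 (ENSRNOG00000011023) varied more than most genes among the 16 controls. Its lowest level was 175 normalized counts in control 6, the median was 1642 and the highest was 18232 in control 14, a 104-fold range. The mean was 3460.2 ± 4667 (SD, n = 16), a coefficient of variation of 135%, against a median of 29.2% over the 12582 genes with a mean count of at least 10. Control 8, at 9050.3, was second, and controls 6, 2 and 3 had the lowest levels. In blood libraries a smaller number of cells of a type and less RNA per cell cannot be told apart. A second entry with the same symbol (ENSRNOG00000049980) took 8.24% (control 2) to 40.6% (control 6) of the counts of both, with a median of 28.6%. It averaged 1287 ± 1651 normalized counts (SD, n = 16) and followed the first entry closely (r = 0.95, rho = 0.96, adjusted permutation p = 0.000518). RSEM divides reads among similar transcripts, so the division between the 2 entries is uncertain.

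Nos3 (ENSRNOG00000009348) was close to the limit of detection. It had between 0 and 10 estimated counts per library, and the 0 in control 6 allows a level of up to 3 counts, by counting error alone. In normalized counts the median was 3.62 and the highest level was 8.95 in control 2. The 8 genes were filtered like all others on a mean of at least 10 counts, and Nos3 was the only one of the 8 below it. It was therefore not among the genes tested against the others, and its own relations rest on these low counts.

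Gch1 (ENSRNOG00000011039) encodes GTP cyclohydrolase, the first and rate-limiting enzyme of tetrahydrobiopterin synthesis. Its lowest level was 1323 normalized counts in control 3, the median was 2543 and the highest was 6679 in control 10 (mean 3033 ± 1557, SD, n = 16, a coefficient of variation of 51.3%, or 30.8% with scaling by total counts). Controls 10, 7 and 16 had the highest Gch1 levels. Control 14, the highest for Nos2, had a Gch1 level of 2351, below the median.

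The transporter genes differed in their spread. Slc7a1 (ENSRNOG00000000924), which encodes the cationic amino acid transporter found in most tissues, ran from 129.7 normalized counts in control 8 through a median of 219 to 357 in control 4 (mean 213 ± 59.8, SD, n = 16). Its coefficient of variation of 28.0% was the lowest of the 8 genes, but with scaling by total counts it was 40.5%, above that of Odc1 (27.5%). Slc7a2 (ENSRNOG00000011016), whose transporter is known to be induced in activated macrophages, had its lowest level, 2.06, in control 3, a median of 12.3 and its highest level, 264.5, in control 8 (mean 45.7 ± 78.0, SD, n = 16). Only controls 8, 14 (210.2) and 2 (78.8) exceeded 50 normalized counts, and the coefficient of variation was 171%.

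Arg2 (ENSRNOG00000011139), the mitochondrial arginase, ran from 14.1 normalized counts in control 6 through a median of 111 to 513 in control 8 (mean 163 ± 152, SD, n = 16, a coefficient of variation of 92.8%). Odc1 (ENSRNOG00000005424) encodes ornithine decarboxylase, which makes putrescine, the first polyamine, from ornithine. It ran from 2070.5 in control 10 through a median of 3960.3 to 7704 in control 8, with control 16 almost as high at 7652 (mean 4347 ± 1608, SD, n = 16, 37.0%). Ddah2 (ENSRNOG00000000842), which encodes an enzyme that degrades asymmetric dimethylarginine, an inhibitor of the synthases, ran from 26.5 in control 6 through a median of 57.8 to 118 in control 8 (mean 59.5 ± 24.5, SD, n = 16, 41.2%). Control 8 was thus the highest library for Arg2, Odc1, Ddah2 and Slc7a2 and the lowest for Slc7a1, while control 6 was the lowest for Nos2, Arg2 and Ddah2.

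**Figure D1:**
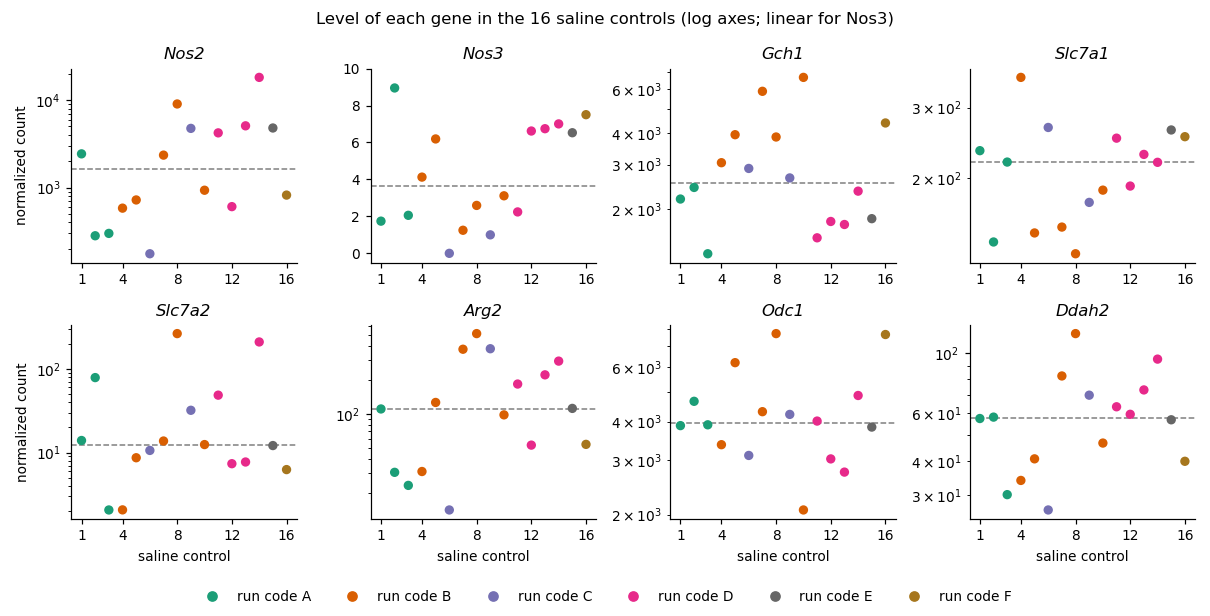
Normalized count of each of the 8 genes (vertical axes, logarithmic except for Nos3) in saline controls 1 to 16 (horizontal axes), coloured by run code, with the median as a dashed line. Nos2 spans 175 to 18232. Gch1 is higher in all 5 libraries of run code B than in the 4 of run code D, and how many other genes separate this way was not counted.

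Promoter sequences were available in the RefSeq table (build GRCr8) for 4 of the 8 genes, Gch1, Odc1, Slc7a1 and Nos3, from 250 bases before to 50 bases after the start of the gene. They are printed for the 3 of these with enough counts for a test, because each of the 3 moved with a different marker list, as described further on. Several short motifs were searched on both strands. They were AGATAA (a form of the GATA motif, which is known from red cell genes), TGATAA (another form of it), CACGTG (an E-box, bound by Myc family factors), CCAAT (the CCAAT box), GGGCGG (a GC box) and TATAAA. Capitals mark AGATAA (read on the other strand as TTATCT) and CCAAT in Gch1 at chr15:22917363-22917662 (minus strand), GGGCGG on either strand in Odc1 at chr6:46058415-46058714 (plus strand), and CCAAT and GGGCGG on either strand in Slc7a1 at chr12:11664238-11664537 (plus strand).
Gch1: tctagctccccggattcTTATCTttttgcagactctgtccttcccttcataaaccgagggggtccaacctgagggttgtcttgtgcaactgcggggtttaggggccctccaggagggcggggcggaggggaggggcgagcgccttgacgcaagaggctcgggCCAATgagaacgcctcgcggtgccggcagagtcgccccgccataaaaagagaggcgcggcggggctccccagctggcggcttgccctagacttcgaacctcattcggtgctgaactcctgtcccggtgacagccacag
Odc1: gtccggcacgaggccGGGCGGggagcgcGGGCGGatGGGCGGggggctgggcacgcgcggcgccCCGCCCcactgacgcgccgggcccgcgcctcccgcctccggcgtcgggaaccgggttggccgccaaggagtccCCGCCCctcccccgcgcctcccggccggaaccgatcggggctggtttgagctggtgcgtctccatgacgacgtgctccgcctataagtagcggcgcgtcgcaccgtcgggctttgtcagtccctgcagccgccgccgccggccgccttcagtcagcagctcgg
Slc7a1: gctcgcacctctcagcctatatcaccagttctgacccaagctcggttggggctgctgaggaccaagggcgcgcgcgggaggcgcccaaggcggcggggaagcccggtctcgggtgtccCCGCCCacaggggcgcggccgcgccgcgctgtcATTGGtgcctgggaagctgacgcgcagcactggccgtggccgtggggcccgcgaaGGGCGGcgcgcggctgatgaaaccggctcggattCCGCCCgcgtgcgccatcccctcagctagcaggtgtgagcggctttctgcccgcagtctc

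The Gch1 window held AGATAA once, starting 233 bases before the gene start, which is a motif found in 11.6% of 33469 rat promoters of the same length. It also held CCAAT 88 bases before the start (37.5% of promoters) and 2 matches to GGGCGG (33.1%). The Odc1 window held 5 matches to GGGCGG and the Slc7a1 window 3, with CCAAT on the minus strand 99 bases before the Slc7a1 start. The Nos3 window held TGATAA once (9.03% of promoters). CACGTG (6.42%) and TATAAA (14.2%) were in none of the 4 windows, and a match or its absence describes these letters only.

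Nos2 was then related to the 7 other genes over the 16 controls, the question being whether cofactor and substrate supply genes followed it. Correlations were computed on log2(normalized count + 1) and tested two-sided with 100000 permutations, with p-values adjusted over 12581 genes. Arg2 and Ddah2 followed Nos2, 2 of the 6 genes tested, both positive. Of all genes, 17.0% were related to Nos2 at this threshold, 12.0% positively and 4.98% negatively. These were 2142 genes, against 1107 with scaling by total counts and 1051 without controls 2, 8 and 12. Neither the cofactor gene Gch1 nor the transporter genes Slc7a1 and Slc7a2 nor Odc1 passed the test.

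The correlation of Nos2 with Arg2 was r = 0.89 (p = 1e-05, the smallest the permutations can give, adjusted p = 0.000518) and rho = 0.87 (p = 3e-05). Without the libraries farthest from the median Nos2 level, controls 14 and 6, it was 0.88, and with values centred within run codes it was 0.92. The correlation with Ddah2 was r = 0.84 (p = 8e-05, adjusted p = 0.0017) and rho = 0.77 (p = 0.00094), 0.76 without controls 14 and 6 and 0.83 within run codes. Arg2 and Ddah2 passed the test in all 14 alternatives, with adjusted p from 0.000413 to 0.0134 for Arg2 and from 0.000655 to 0.0193 for Ddah2. The 3 lowest Nos2 levels, in controls 6, 2 and 3, were accompanied by the 3 lowest levels of Arg2.

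For Slc7a2 the result turned on control 2, the library with liver transcripts. Over all 16 controls r was 0.60 (p = 0.0147, adjusted p = 0.073) and rho 0.53 (p = 0.0375). Without control 2 it was 0.78 (adjusted p = 0.0050), and without controls 2, 8 and 12 it was 0.75 (adjusted p = 0.030). Without controls 2, 5, 7 and 8 it was 0.76 (adjusted p = 0.041). Without control 10 it was 0.60, without the 2 farthest controls 0.50 and within run codes 0.63, none past the threshold. Control 2 had the second lowest Nos2 level and the third highest Slc7a2 level.

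The other correlations with Nos2 were small. For Odc1 r was 0.22 (rho = 0.21, adjusted p = 0.60), for Gch1 -0.06 (rho = -0.10, adjusted p = 0.89) and for Slc7a1 -0.11 (rho = -0.15, adjusted p = 0.81). Over the 14 libraries of run codes with at least 2, centred within run codes, these were 0.48, 0.17 and -0.28, and without controls 14 and 6 they were 0.10, -0.02 and -0.04. For Nos3 r was 0.13 (p = 0.63, not adjusted) and rho 0.08 (p = 0.77), from 10 counts or fewer per library. The signs for Gch1, Slc7a1 and Nos3 were not stable across the alternatives.

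**Figure D2:**
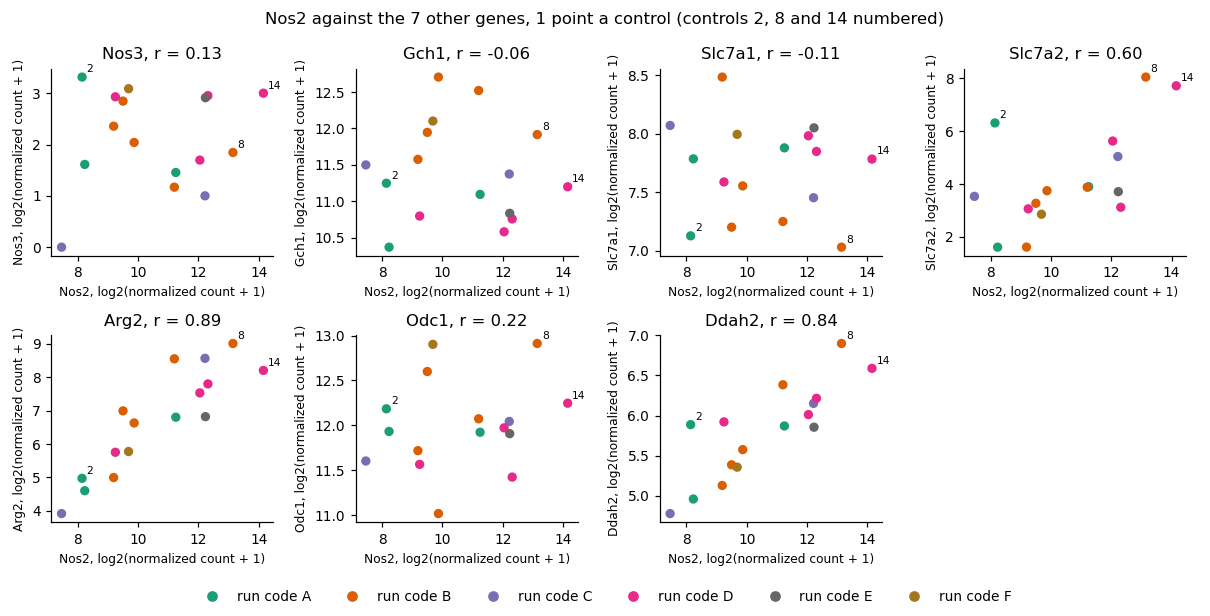
Log2 levels of the 7 other genes (vertical axes) against Nos2 (horizontal axes), 1 point for each of the 16 controls, coloured by run code, with Pearson r in each title. Points for Arg2 (r = 0.89) and Ddah2 (r = 0.84) rise with Nos2, those for Gch1 (r = -0.06) and Slc7a1 (r = -0.11) do not, and control 2 lies off the trend for Slc7a2 (r = 0.60).

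Among the 21 pairs of the 7 genes tested, 3 passed the threshold whichever gene of the pair the adjustment was made for: Nos2 with Arg2, Nos2 with Ddah2, and Arg2 with Ddah2 (r = 0.87, rho = 0.84). Ddah2 was also related to Slc7a2 (r = 0.76, rho = 0.70, adjusted p = 0.0133 over the genes tested against Ddah2 and 0.165 over those tested against Slc7a2). Counting each gene's own relations, 2 of 6 were called for Arg2, beside 22.9% of all genes (12.6% positively and 10.3% negatively), and 3 of 6 for Ddah2, beside 14.7% (9.89% and 4.83%), all of them positive. None was called for Slc7a1 beside 12.8% of all genes (7.78% positively and 4.99% negatively), for Gch1 beside 5.49%, for Odc1 beside 2.23% or for Slc7a2 beside 0.0159%, which is 2 genes (2303 at an unadjusted permutation p under 0.05). Within run codes, and without its farthest controls 6 and 8, Ddah2 passed the threshold with no gene at all, although 3485 and 2117 genes had an unadjusted p under 0.05. Its r with Nos2 was then 0.83 (adjusted p = 0.060) and 0.77 (adjusted p = 0.082), and its r with Arg2 0.88 (adjusted p = 0.065) and 0.79 (adjusted p = 0.078).

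The rest of the pathway was read from lists of genes, each count standing beside the 12.0% of all genes related to Nos2 positively and the 4.98% related negatively. Of 7 genes for tetrahydrobiopterin synthesis and recycling, Gch1 included, none was positively related to Nos2 and 1 was negatively related, with a list median r of -0.43 beside -0.11 for all genes. That gene was Pts (r = -0.68, rho = -0.64, adjusted p = 0.027), whose enzyme acts after GTP cyclohydrolase, and the call was lost without control 2. In the relations of Gch1 itself, 0 of the other 6 genes of the list passed, with a median r of 0.18.

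Of 5 genes for cationic amino acid transport, 0 passed with Nos2, and the median r was -0.11. Slc3a2, which encodes the heavy chain that brings light chain transporters to the cell surface (5922 ± 2094 normalized counts, SD, n = 16), had r = -0.19 (adjusted p = 0.65). Genes that rebuild arginine from citrulline or feed the urea cycle did not pass either, 0 of 4 with a median r of -0.08. Ass1, the argininosuccinate synthase gene, ran from 23.0 in control 6 through a median of 84.1 to 1967 in control 2 and had r = 0.31 (adjusted p = 0.44). Cps1 and Otc, genes of the liver urea cycle, had medians of 0.343 and 4.27 normalized counts and levels of 3276 and 1236 in control 2. Without control 2, 1 of these 4 genes and 1 of the 5 transport genes, Slc7a2, passed.

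Other uses of arginine gave 1 positive call among 5 genes, Arg2, beside 12.0% of all genes. Arg1, the cytosolic arginase of liver, had a median of 5.10 normalized counts and 3039 in control 2, and its r with Nos2 was -0.02 (adjusted p = 0.97). Gatm, which starts creatine synthesis, had r = 0.42 (adjusted p = 0.26). Control 2, the library with the highest Arg1 level, had the third lowest level of Arg2 (30.4).

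Methylarginine turnover gave 2 positive calls among 8 genes, beside 12.0% of all genes, and these were the 2 dimethylaminohydrolases. Ddah1 ran from 105 normalized counts in control 3 through a median of 442 to 1393 in control 14 and had r = 0.93 with Nos2 (rho = 0.92, adjusted p = 0.000518). The 5 protein arginine methyltransferase genes of the list, whose products methylate the arginines that become free inhibitors, had r from -0.46 for Prmt5 to -0.29 for Prmt3 and none passed. The list median was -0.32.

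Polyamine genes split, with 2 positive and 2 negative calls among 10 (beside 12.0% and 4.98% of all genes), and no negative call without controls 2, 5, 7 and 8. Azin1, the antizyme inhibitor that protects ornithine decarboxylase, had r = 0.91 and Sat1, the acetyltransferase of polyamine breakdown, 0.79. Sms, the spermine synthase gene, had r = -0.80 and Paox, a polyamine oxidase, -0.70. Of 4 genes for the nitric oxide receptor and cGMP signalling, 1 passed beside 12.0% of all genes: Vasp, a substrate of the cGMP-dependent kinase (r = 0.79, adjusted p = 0.0011). The subunits of soluble guanylate cyclase, Gucy1a3 and Gucy1b3, had r = 0.20 and 0.39 and did not pass. Among 8 partners of the synthases 1 passed, a share near the 12.0% of all genes: the calmodulin gene Calm2 (r = 0.65, adjusted p = 0.043), and not without control 2 or without control 10.

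The list with the most calls held inducers of Nos2 and their signalling genes. In it 16 of 18 were positively related and none negatively, beside 12.0% and 4.98% of all genes, with a median r of 0.85. Whether Nos2 was induced in these animals was not tested. Tnf, the tumour necrosis factor gene, ran from 113 normalized counts in control 6 through a median of 477 to 3347 in control 8 and had r = 0.97 (rho = 0.96, adjusted p = 0.000518). The interferon gamma receptor genes Ifngr2 and Ifngr1 had r = 0.94 and 0.93, the transcription factor gene Irf1 0.91 and Il1b, a gene of an inflammatory interleukin (18408 ± 11581 normalized counts, SD, n = 16), 0.81. Irf8 (r = -0.34) and Jak1 (r = 0.62, adjusted p = 0.062) did not pass. Ifng itself had a mean of 3.06 counts and was not tested. Between 13 and 15 of the 18 passed without control 2, without controls 2, 8 and 12, without controls 14 and 6, and within run codes, and 12 without controls 2, 5, 7 and 8.

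**Figure D3:**
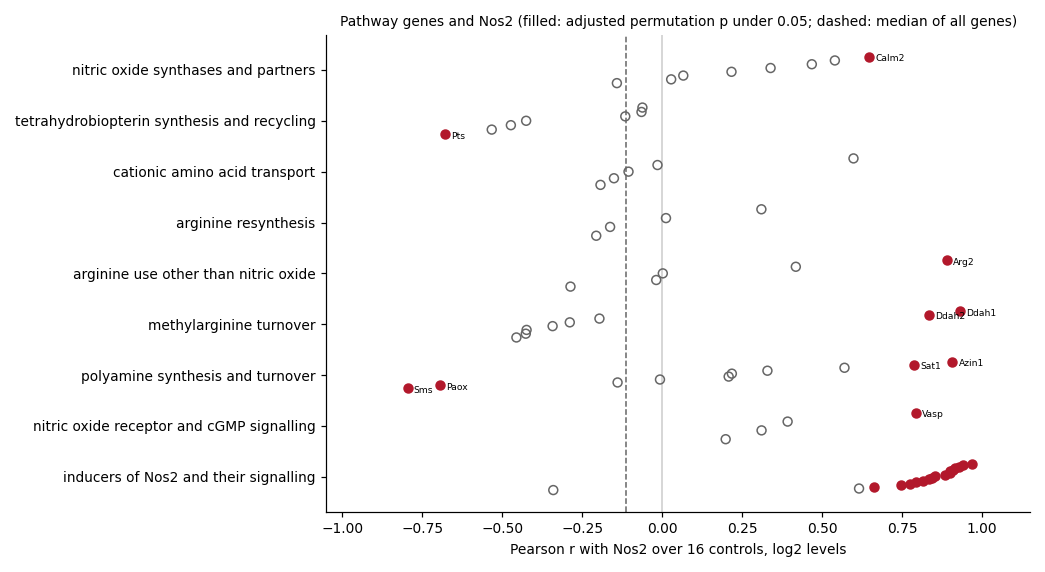
Pearson r of each pathway gene with Nos2 over 16 controls (horizontal axis), grouped by list (rows). Filled points passed an adjusted permutation p under 0.05 and are named except in the list of inducers, where 16 of 18 passed, and the dashed line is the median r of all genes (-0.11). Calls on the positive side outside the inducers are Arg2, Ddah1, Ddah2, Azin1, Sat1, Vasp and Calm2.

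Markers of blood cells were read beside the 8 genes, since the libraries mix cell types. Of 10 neutrophil genes tested, 9 were positively related to Nos2, beside 12.0% of all genes, with a list median r of 0.90. The receptor genes Csf3r and Cxcr2 had r = 0.95 and 0.94, the calcium-binding protein gene S100a9 0.90, and Ngp alone did not pass (r = 0.30). The summed level of all 12 neutrophil genes found ran from 36009.8 normalized counts in control 6 through a median of 216442 to 1142132 in control 8. A count of 9 of 10 was also obtained in all 6 alternatives, namely without control 2, without controls 2, 8 and 12, without controls 2, 5, 7 and 8, without control 10, without controls 14 and 6 and within run codes. What part the share of neutrophils in the blood had in the levels of Nos2 was not tested.

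Monocyte genes gave 4 positive calls of 9 with Nos2 (Ccr1, Cd14, Fcgr1a and Lyz2, r from 0.65 to 0.90), beside 12.0% of all genes. Among those not passing were Cx3cr1 (-0.35) and Csf1r (-0.19). In the T cell list 1 of 9 genes, Cd4 (r = -0.65, adjusted p = 0.039), was negatively related to Nos2. In the B cell list it was 1 of 6, Cd79b (r = -0.67, adjusted p = 0.040). Both counts stand beside 4.98% of all genes related negatively. The T cell count was 0 without controls 2, 8 and 12, without controls 2, 5, 7 and 8 and without control 10, and 7 without controls 14 and 6. The B cell count was 0 without control 2, without controls 2, 8 and 12, without controls 2, 5, 7 and 8 and without controls 14 and 6. None of 5 NK cell, 8 platelet, 7 erythroid, 4 endothelial, 8 liver, 2 heart muscle or 3 thymus genes passed with Nos2, beside 17.0% of all genes. Of 4 fat genes 1 passed, Cfd (r = 0.74, adjusted p = 0.013), beside 12.0% of all genes related positively. Cfd did not pass within run codes or without controls 2, 5, 7 and 8.

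Arg2 and Ddah2 had the same neutrophil count as Nos2, 9 of 10 genes positive for each, beside 12.6% and 9.89% of all genes and with median r of 0.91 and 0.81. For Arg2 the count was 9 with the libraries named above left out, without its farthest controls 6 and 3 and within run codes. For Ddah2 it was 9 without control 2, without controls 2, 8 and 12 and without control 10, was 8 without controls 2, 5, 7 and 8, and fell to 0 without controls 6 and 8 and within run codes, with median r of 0.72 and 0.84. Slc7a2 had 0 of 10 neutrophil genes past the threshold over all controls (median r 0.50), 9 of 10 without control 2 (median r 0.72) and 0 without controls 2, 8 and 12, without controls 2, 5, 7 and 8 and without control 10. Inducer genes passed in 15 of 18 cases for Arg2 and 14 of 18 for Ddah2, the latter falling to 8 without controls 2, 5, 7 and 8 and to 0 without controls 6 and 8 and within run codes.

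With Gch1, 0 of 10 neutrophil genes passed (median r 0.05). Instead 3 of 7 erythroid genes were positively related, beside 5.37% of all genes, and the list median was 0.65. Alas2, the rate-limiting enzyme gene of haem synthesis in red cell precursors, had r = 0.90 (rho = 0.89, adjusted p = 0.0013), the membrane skeleton gene Epb42 0.87 and Slc4a1, the anion exchanger of red cells, 0.76. Without control 2, without controls 2, 8 and 12 or without controls 2, 5, 7 and 8, 3 of 7 passed, without control 10 or without the farthest controls 10 and 7 it was 2 of 7, and within run codes 0 of 7 with a median r of 0.38. No gene of the whole table passed with Gch1 within run codes. Of 12581 genes, 292 had an unadjusted p under 0.05, a share below 0.05. With total count scaling, the list counts of Gch1, and of Odc1 and Slc7a1 below, were not computed. That scaling moved the coefficient of variation of each, for Gch1 from 51.3% to 30.8%. The erythroid list's part in the levels of Gch1 was not tested, and the AGATAA match in its promoter, printed above, describes letters only.

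Odc1 was related to platelet genes, 6 of 8 positive beside 2.05% of all genes, with a median r of 0.80. Treml1 (r = 0.87, adjusted p = 0.0026) and Gp9 (r = 0.86, adjusted p = 0.0035), genes of platelet membrane proteins, led the list, and Pf4, a platelet chemokine gene, had 0.77. The platelet sum was lowest in control 10, at 7695 normalized counts, the library with the lowest Odc1, and highest in control 16, at 106258, the library with the second highest. The count was 6 without control 2 and fell to 2 without control 10 (median r 0.73) and without the farthest controls 8 and 16, and to 1 without controls 2, 8 and 12. It was 0 without controls 2, 5, 7 and 8 (median r 0.83) and within run codes (median r 0.85), settings in which no gene of the whole table passed with Odc1 (1292 and 1888 at an unadjusted p under 0.05). What part platelets had in the levels of Odc1 was not tested.

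Slc7a1 had a negative relation to all 8 liver genes, beside 4.99% of all genes related negatively, with a median r of -0.78. The 4 controls with the highest liver sums, 2, 8, 7 and 5, had 138.7, 129.7, 151 and 146 normalized counts of Slc7a1, the 4 lowest levels, and the other 12 had 174 to 357. How many of all genes had their 4 lowest or 4 highest levels in these 4 controls was not counted. Without control 2, all 8 liver genes passed again, and without controls 2, 8 and 12, 3 of 8 passed. Within run codes 5 passed, and without the farthest controls 8 and 4, 7 passed. Without controls 2, 5, 7 and 8, 0 of 8 passed and the median r was -0.26. The 12 controls left had liver sums of only 14.9 to 119, and Slc7a1 then passed with 18 genes positively and 4 negatively of 12581. With so little liver signal left, this setting cannot show whether the relation holds beyond those 4 libraries. What part liver RNA had in the levels of Slc7a1 was not tested. No liver gene passed with any of the other 7 genes.

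**Figure D4:**
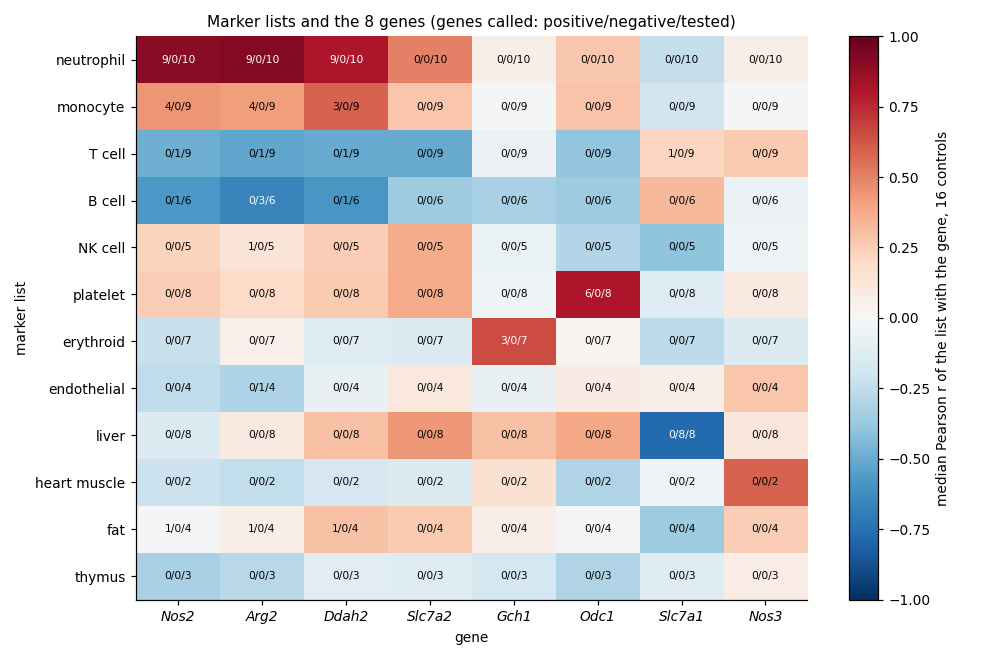
Median Pearson r of each marker list (rows) with each of the 8 genes (columns) over 16 controls, as colour, with the number of list genes called positive, called negative and tested in each cell. Neutrophil genes go with Nos2, Arg2 and Ddah2 (9 of 10 each), erythroid genes with Gch1 (3 of 7), platelet genes with Odc1 (6 of 8), and liver genes run against Slc7a1 (8 of 8, and 0 of 8 without controls 2, 5, 7 and 8).

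**Figure D5:**
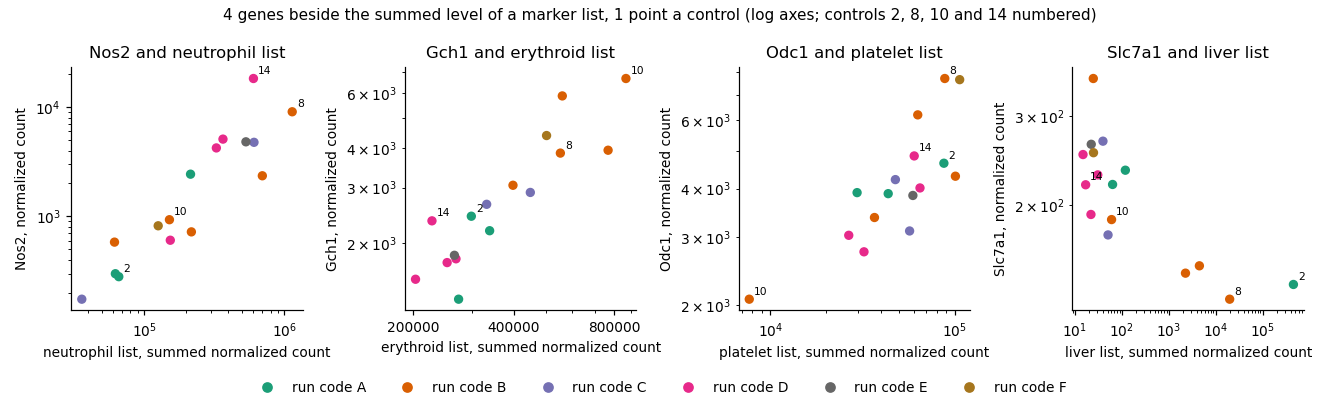
Levels of Nos2, Gch1, Odc1 and Slc7a1 (vertical axes) against the summed normalized count of the neutrophil, erythroid, platelet and liver lists (horizontal axes), all on log axes, 1 point for each of the 16 controls coloured by run code. Control 10 has the highest erythroid sum and Gch1 level and the lowest platelet sum and Odc1 level, and controls 2, 8, 7 and 5 hold the 4 lowest Slc7a1 levels. How many other genes have their 4 lowest levels in those controls was not counted.

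The genes most like each of the 8 were taken among 8368 genes with a symbol and a mean of at least 100 normalized counts, by Pearson r over the 16 controls. For Nos2 they were Pram1 (r = 0.98), Bcl3 (0.98), Sema4a (0.97), Tnf (0.97) and Csf2rb (0.97), and the lowest were Fam69a (-0.87), Xkrx (-0.87) and Mfn1 (-0.87). For Arg2 they were Il1r1, Cd33 and Mrps6 (0.98 each), for Ddah2 Cd302 (0.95), Ier3 (0.94) and Gk (0.93), and for Slc7a2 P4hb (0.90), Alas1 (0.89) and Sdc4 (0.89). For Gch1 they were Dnajb12 (0.96), Cdc37 (0.95) and Psmd4 (0.95), for Odc1 Nt5c3 (0.95), Tesc (0.95) and Tax1bp3 (0.94), and for Slc7a1 Phf20 (0.93), Lrrc8c (0.93) and Ambra1 (0.93). For Nos3 C1qbp (0.85), Tex264 (0.79) and Eif4ebp3 (0.76) were highest, and 0 of 12582 genes (0.00%) passed the adjusted permutation test (791 at an unadjusted p under 0.05, and 0 by adjusted Spearman tests).

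Run codes with at least 3 libraries were compared in one edgeR quasi-likelihood fit of 12 libraries, as a check for differences between batches of any kind. Experiments months apart and sequencing cannot be told apart in these codes. Gch1 differed between run codes B and D, and it was the only one of the 7 genes tested to do so, beside 2.30% of all 12952 genes. The 5 controls of run code B had 3052, 3946, 5877, 3864 and 6679 normalized counts of Gch1 (controls 4, 5, 7, 8 and 10), and the 4 of run code D had 1531, 1779, 1731 and 2351 (controls 11 to 14). The groups did not overlap, with means of 4684 ± 1523 (SD, n = 5) and 1848 ± 352 (SD, n = 4). How many of all genes had levels without overlap between run codes was not counted. Of all genes, 11.3% had an unadjusted edgeR p under 0.05 between B and D. The log2 change of Gch1 from B to D was -1.33 ± 0.28 (SE, edgeR adjusted p = 0.035). The erythroid list moved the same way, with summed levels of 398307 to 868145 in run code B and 203384 to 268847 in run code D, and its part in the difference was not tested. The call was lost when any one of controls 5, 7, 10, 11, 12, 13 and 14 was left out (edgeR adjusted p from 0.066 to 0.139) and with scaling by total counts (-0.79, adjusted p = 0.18).

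The 3 controls of run code A had 2186, 2432 and 1323 normalized counts of Gch1, below all 5 of run code B. The share of all genes without overlap between A and B was not counted. This difference did not pass (log2 difference from A to B 1.23 ± 0.30, SE, edgeR adjusted p = 0.12), but it passed with DESeq2 (1.24) and without control 4 (1.36). Nos2 levels overlapped among the 3 run codes. They ran from 281 to 2432 in A, from 582 to 9050.3 in B and from 605 to 18232 in D, and no comparison of Nos2 passed (log2 change from A to D 2.80 ± 1.31, SE, edgeR adjusted p = 0.92, and for A with B 0.63). When A was set against B or D, edgeR called 0 of 12952 genes (0.00%) each time, with 13.6% and 5.41% at an unadjusted p under 0.05, while DESeq2 called 563 and 14 genes. Of the 7 genes tested, Arg2 had the largest difference between A and B (log2 2.04 ± 0.90, SE, edgeR adjusted p = 0.35), its levels running from 23.3 to 110.6 in A and from 30.9 to 513 in B.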

How the data were processed

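Whole blood RNA of 16 saline-injected rats was globin-depleted, poly(A)-selected and sequenced as stranded paired ends. The deposited files hold estimated counts per gene, 1 file per animal, which the authors made with CASAVA 1.8.2, Bowtie 0.12.9 and RSEM 1.2.0 on Ensembl 70 gene models of rn5, and the replacement of extreme counts that the authors describe was not applied here. The 26405 entries found in any file were reduced to the 18031 found in every file, which held at least 99.99% of each library's counts. Totals ran from 21466776 to 31189549, so that 3 counts, taken as the upper limit for a count of 0, equal a CPM of 0.096 to 0.14. The closest pair of libraries, controls 11 and 13, differed by far more than counting noise (chi-square per degree of freedom 48.0), so none was treated as a copy of another, and the 16 animals are those the labels name. The p-values rest on these 16 samples of 1 group and cover their spread only.

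Levels were scaled with size factors computed as in DESeq2 and related on log2(normalized count + 1), with 100000 two-sided permutations and Benjamini-Hochberg adjustment over all genes whose mean reached 10 counts. The threshold was an adjusted p under 0.05 everywhere. Run codes with 3 or more libraries were compared with the edgeR (4.0.16) quasi-likelihood test on counts rounded to whole numbers, with TMM factors and filterByExpr. Alternatives for the run codes were DESeq2 (1.42.0), limma-voom (3.58.1), other scalings, no filter and each of the 12 libraries left out. Alternatives for the relations of Nos2 were other scalings, a pseudocount of 10, no filter, Spearman's rho, the second Nos2 entry and values centred within run codes. Controls 2, 6, 8 and 12 were also left out singly, and some sets of controls together. Lists and relations of the other genes were repeated only with chosen controls left out and within run codes. Spearman's rho was computed for all 8 genes. In simulated counts of 12748 genes for run codes B and D, edgeR recovered 64.6% of 4-fold and 10.3% of 2-fold changes with 3 false calls. R 4.3.3 and Python 3.11.15 (numpy 2.4.6, pandas 2.3.3, scipy 1.17.1, matplotlib 3.10.9) were used.

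The 8 genes, the gene lists and the tests were chosen with earlier results of these data known. Genes were named by rule: the 8 genes, the 5 highest and 3 lowest correlations with Nos2, the 3 highest for each other gene, and for each list the 2 strongest correlations with Nos2 and the gene with the highest mean. Not all genes that meet this rule are named. Among those left out are Hsp90ab1, Asl and Prmt1, each with the highest mean of its list. Other genes named were chosen after their values were seen, as were the alternatives for the lists, which left out control 2, controls 2, 8 and 12, controls 2, 5, 7 and 8, or control 10. Counts do not allow a comparison of levels between genes, since gene lengths were not used here.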

Additional observations from a re-analysis of the deposited data

Results flagged for a closer look

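Within run codes B (5 libraries) and D (4 libraries), 4 of 16 checks of the 8 genes had 1 library far from the others. The measure was Dixon's ratio of gap to range, against critical values of 0.71 and 0.829. Chance gives 0.8 such checks only if the checks are independent and the values normally spread. The ratios were taken on normalized counts and were not computed on the log2 levels used for the correlations. Related genes were among those checked. The count of 4 therefore cannot show that libraries stood apart beyond chance. In run code B, Nos2 was 9050.3 normalized counts in control 8 and at most 2352 in the other controls (ratio 0.791). Slc7a2 was 264.5 in control 8 and at most 13.7 in the others (ratio 0.956). Slc7a1 was 357 in control 4 and at most 187 in the others (ratio 0.748). In run code D, Nos3 was 2.24 in control 11 and at least 6.62 in the others (ratio 0.919), all at 9.25 estimated counts or fewer.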

How the results depend on the processing

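The mean level of each of the 8 genes moved by less than 1 SD under TMM and total count scaling. Total count scaling moved the coefficient of variation of Gch1 from 51.3% to 30.8%, of Odc1 from 37.0% to 27.5% and of Slc7a1 from 28.0% to 40.5%. It also moved that of Arg2 from 92.8% to 85.6% and that of Slc7a2 from 171% to 158.6%. The relations of Nos2 to Arg2 and Ddah2 passed in all 14 alternatives, and those to Odc1, Gch1 and Slc7a1 in none. For Slc7a2, r rose past the threshold without control 2 (0.78) and without controls 2, 8 and 12 (0.75). The sign turned for Nos3 within run codes (-0.14), without controls 14 and 6 (-0.37), without control 6 (-0.18) and with the second Nos2 entry (-0.032), for Gch1 within run codes (0.17) and with that entry (0.054), and for Slc7a1 with total count scaling (0.044), without control 8 (0.053), without control 6 (0.0020) and with that entry (0.0027). Against 2142 genes related to Nos2, total count scaling gave 1107 and leaving out controls 2, 8 and 12 gave 1051. Why these changed was not tested.

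Between run codes, edgeR called 0 genes from A to B (DESeq2 4.35% of genes, limma 0.054%), 0 from A to D (DESeq2 0.108%) and 2.30% from B to D (DESeq2 5.73%, total count scaling 0.0463%). With 1 library left out the shares ran from 0 to 3.93%, from 0 to 0.015% and from 0.0155% to 5.44%. The highest for A with B and for B with D came without control 4, and for B with D the share was 0.0233%, 0.737%, 0.457%, 0.0156%, 0.211%, 0.0232% and 0.0155% without controls 5, 7, 10, 11, 12, 13 and 14. The log2 change of Gch1 ran from 1.01 to 1.39 for A to B (0.73 with total count scaling, and DESeq2 1.24 and, without control 4, 1.36, both past the threshold), from -0.32 to 0.060 for A to D, and from -1.47 to -1.17 for B to D (-0.79 with total count scaling, no longer past it). For Arg2 it ran from 1.52 to 3.08, from 1.42 to 2.81 and from -0.56 to 0.25 (0.10 with limma-voom, 0.29 with total counts), and for Nos2 from 0.18 to 3.23 (0.77 with total counts), from 1.74 to 4.61 and from 0.30 to 2.61. Total count scaling shifted the median gene by -0.50 from A to B and by 0.53 from B to D. No paired analysis was possible because all animals formed 1 group. Depth limits Nos3 above all, and 16 animals limit every correlation.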

Other observations

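Some other genes of the pathway lists were related to Gch1, Odc1 and Slc7a1. With Gch1, positive calls were 1 of 5 transport genes, 2 of 10 polyamine genes and 1 of 9 synthases and partners, beside 5.37% of all genes. With Odc1 they were 2 of 9 polyamine genes and 2 of 4 receptor and cGMP signalling genes, beside 2.05% of all genes. Gch1 rose and fell with Slc3a2, the heavy chain of amino acid transporters (r = 0.85, adjusted permutation p = 0.0020), Smox, the spermine oxidase gene (r = 0.87, adjusted p = 0.0020), and Oaz1, an antizyme that targets ornithine decarboxylase for degradation (r = 0.82, adjusted p = 0.0064). Odc1 went with Amd1, whose enzyme supplies the aminopropyl groups of spermidine and spermine (r = 0.88, adjusted p = 0.0026), and with another antizyme gene, Oaz2 (r = 0.81, adjusted p = 0.013), and also with the guanylate cyclase subunit genes Gucy1a3 and Gucy1b3 (r = 0.84 and 0.83). Within run codes no gene passed with Gch1 or Odc1 (292 and 1888 of 12581 genes at an unadjusted permutation p under 0.05).

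Slc7a1 ran against genes known from liver metabolism, among them Oat (r = -0.77), Arg1 (-0.76), Cps1 (-0.76), Agxt2 (-0.70) and Pcbd1 (-0.67), and with the arginine methyltransferase genes Carm1 (0.71) and Prmt6 (0.65). Negative calls were 2 of 5 genes for other uses of arginine, 1 of 4 for arginine resynthesis and 1 of 8 for methylarginine turnover. They were also 1 of 7 for tetrahydrobiopterin and 1 of 9 synthases and partners, all beside 4.99% of all genes. Of the 8 methylarginine genes, 2 were positive, beside 7.78% of all genes. Oat, Arg1, Cps1, Agxt2 and Pcbd1 had their highest level in control 2. Oat, however, was present in every control, from 295 normalized counts in control 4 through a median of 526 to 823 in control 2. Arg1, Cps1, Agxt2 and Pcbd1 had medians of 5.10 or less. Without controls 2, 5, 7 and 8, Slc7a1 was related to 18 genes positively and 4 negatively in the whole table. These genes were named after their values were seen.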
